A study of Mus musculus with 4 samples.

Results

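The genes described here encode the proteasome and the proteins that build and regulate it, measured in mouse embryonic stem (ES) cells with and without Snai1, the gene of a zinc finger repressor that binds E-box sequences. They were taken as every probe set with exactly 1 gene symbol beginning with Psm, then a letter from a to g and a number, with the brightest probe set standing for a gene. This gave 49 of the 18193 genes measured. Of these, 47 have a proteasome role. The other two match the pattern by name only: Psmc3ip, which encodes the meiotic recombination factor Hop2, and Psme3ip1, which encodes a protein that interacts with an activator subunit. Psme2, an activator subunit, had no probe set with 1 symbol and is not among the 49.

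The tested samples were 2 arrays of Snai1 knockout ES cells, set against 2 arrays of control ES cells. The control arrays are titled F/F, a term not spelled out anywhere in the labels. Their source name contains the words knock out, while their description and genotype give control, and they were taken as control. Both groups were grown with leukaemia inhibitory factor on feeder cells and without further treatment, and the labels name neither strain, clone nor the way in which Snai1 was removed. The replicates are called biological, but nothing says that they came from separate cultures or clones, so the p-values measure the spread between these arrays only.

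The proteasome is the protease that degrades ubiquitin-tagged proteins. Its barrel-shaped core holds rings of alpha subunits, which form the gate, around rings of beta subunits, some of which cut peptide bonds. A regulatory particle caps the barrel: its base carries a ring of ATPases that unfold the substrate, and its lid carries the enzyme that removes ubiquitin. Dedicated chaperones assemble the core and the base, and inducible or tissue-restricted beta subunits can replace the constitutive ones. In human ES cells, high proteasome activity is known as a feature of the undifferentiated state.

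The values are log2 expression values per probe set, so a difference of 1 is a doubling, and they compare the same probe set between arrays, not one gene with another. The range of 24 probe sets against Bacillus transcripts, which mouse RNA should not bind, was 2.91 to 4.77 and served as background. Snai1 itself read 3.79 and 4.04 in knockout cells and 4.41 and 4.69 in control cells. The knockout arrays were lower, by 0.63 ± 0.16 (SE, adjusted p = 0.0692 in limma), but all 4 values lay within the background, so this probe set does not check the labels. The 9 ES cell markers were above background on every array. Their mean level was 11.60 and 11.53 in knockout cells and 11.03 and 11.16 in control cells. In limma 4 of them, Pou5f1, Nanog, Esrrb and Utf1, were called higher, where 1.98% of all genes were called higher. The median difference of the 9 was 0.14. Sox2, Zfp42 and Tdgf1 differed by -0.02, 0.02 and 0.02, Dppa5a by 0.14 and Fgf4 by -0.38. The 15 fibroblast markers, which read feeder RNA, had a mean level of 7.41 and 6.77 in knockout cells and 7.68 and 7.06 in control cells. None of the 15 was called in limma, 2 had an unadjusted p under 0.05, their median difference was -0.32, and 2 and 2 of them lay in the background in knockout cells, against 1 and 2 in control cells. The markers also differed between the arrays of a group, and lower feeder RNA in knockout cells is not shown. Were it lower, fewer feeder cells and less RNA per cell could not be told apart in such samples. The arrays also differed in 3′ bias: the level of the 3′ Actb probe set minus that of the 5′ one was 1.11 and 0.80 in knockout cells and 3.02 and 2.97 in control cells, and for Gapdh it was 0.40 and 0.27 in knockout cells and 1.24 and 1.48 in control cells. The part of either in the results below was not tested.

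Knockout ES cells had more transcript of 4 proteasome genes than control cells, and of none less, at an adjusted p under 0.05 in limma. At an unadjusted p under 0.05 the counts were 11 higher and 6 lower, where 23.9% of all genes were under it, 9.06% higher and 14.9% lower. Counts at this p in the classes below are to be read against these shares. The 4 were Psmb7, the beta subunit with trypsin-like activity, Psmd8 and Psmd7, both lid subunits, and Psmf1, an inhibitor that binds the core. They make up 8.16% of the 49 genes, where 4.14% of all genes were called, 1.98% higher and 2.17% lower. Among genes with a mean level of at least 10, 6.3% were called, against 3 of 35 members, or 8.57%. The median difference, knockout minus control, was 0.17 over the 49 genes and -0.02 over all genes. Psmb7 was the one member to differ by more than 1 on the log2 scale, and the 43 uncalled genes with a proteasome role spanned -0.75 to 0.64. Both knockout arrays lay above both control arrays for 21 of the 49 genes, where 23.1% of all genes did so, and both lay below for 12, where 29.2% of all genes did so.

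**Figure D1:**
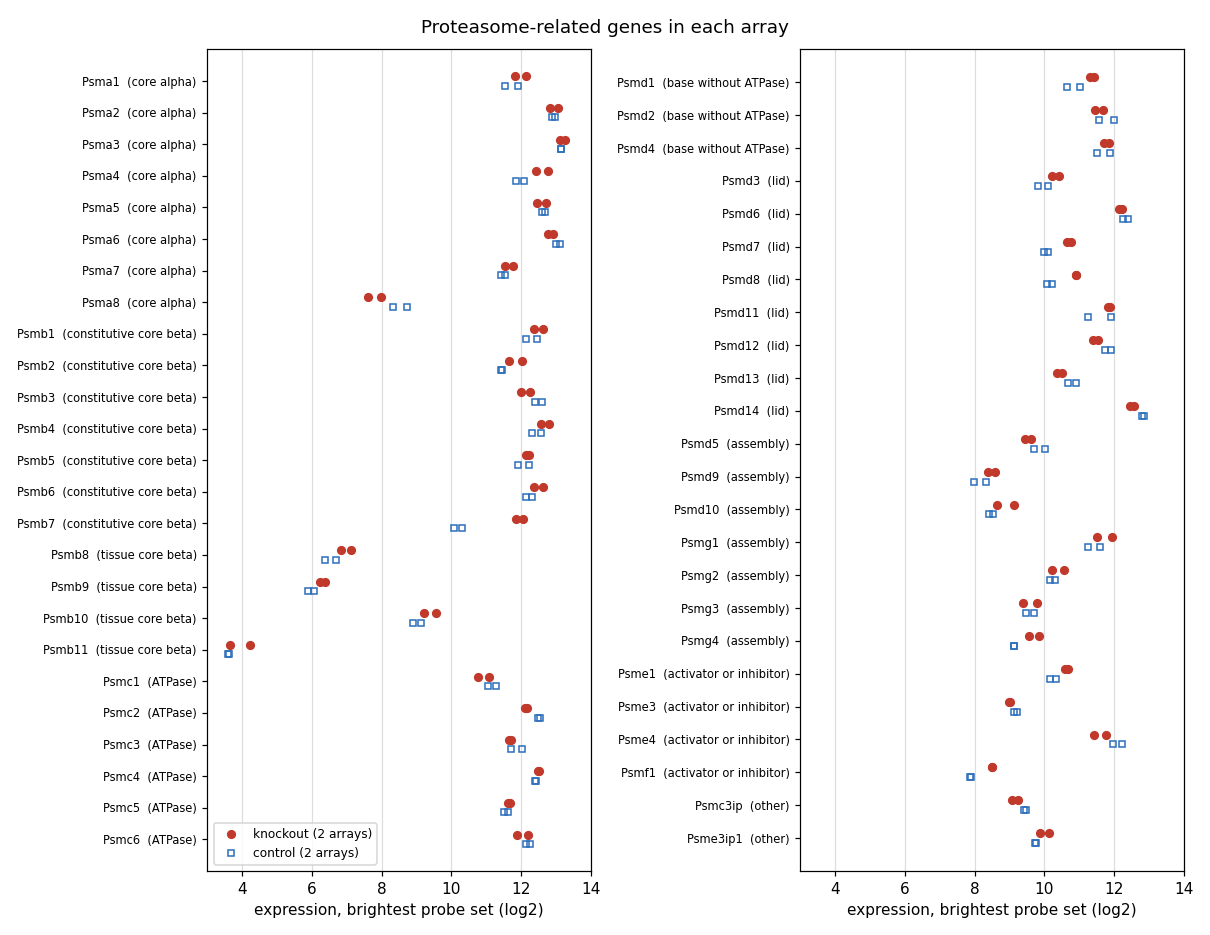
Log2 expression of each of the 49 genes on each of the 4 arrays, with knockout and control arrays marked apart and genes grouped by their place in the proteasome. The control arrays read Psmb7 at 10.07 and 10.30, below both knockout arrays at 11.86 and 12.06. No other gene differs by more than 1 between the group means.

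Among the constitutive beta subunits, Psmb7 stood apart. It read 11.86 and 12.06 in knockout cells and 10.07 and 10.30 in control cells. The groups were far apart relative to the gaps within them. The difference was 1.78 ± 0.15 (SE, limma, adjusted p = 0.00718), or 3.42-fold, with a 95% interval of 1.42 to 2.13, and it ranked 18 from the top among all 18193 genes. It passed in the fits without knockout replicate 1 and without control replicate 1, but the adjusted p was 0.0506 without knockout replicate 2 and 0.0579 without control replicate 2. The array has 1 probe set for Psmb7 with a single symbol, and the RefSeq gene table lists pseudogene copies, so signal from those copies could not be separated.

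The other 6 constitutive beta subunits did not pass the test, with 2 at an unadjusted p under 0.05 in limma, and their median difference was 0.22. Psmb5, which carries the chymotrypsin-like activity, read 12.13 and 12.24 in knockout cells and 11.90 and 12.23 in control cells. The groups overlapped, with a difference of 0.12 ± 0.16 (SE, limma, adjusted p = 0.7185) and a 95% interval of -0.25 to 0.49. Psmb6, which carries the caspase-like activity, differed by 0.27 ± 0.16. The remaining subunits, which sit in the same rings and do not cut, differed by 0.40 (Psmb2), 0.24 (Psmb4), 0.19 (Psmb1) and -0.36 (Psmb3). The difference of Psmb7 exceeded the mean difference of Psmb1 to Psmb6 by 1.63 on the log2 scale, which is given as a description, since Psmb7 was singled out for its size.

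None of the 4 inducible or tissue-restricted beta subunits passed the test in limma, with 2 at an unadjusted p under 0.05, and their median difference was 0.36. Psmb8, Psmb9 and Psmb10 form the immunoproteasome, in which they take the places of Psmb5, Psmb6 and Psmb7. Psmb8 read 6.82 and 7.12 in knockout cells and 6.38 and 6.67 in control cells, a difference of 0.45 ± 0.17 (SE, limma, adjusted p = 0.167). Psmb9 read 6.24 and 6.38 in knockout cells and 5.87 and 6.05 in control cells, a difference of 0.35 ± 0.14 (SE, limma, adjusted p = 0.194). Psmb10 read 9.20 and 9.57 in knockout cells and 8.91 and 9.13 in control cells, a difference of 0.36 ± 0.17 (SE, limma, adjusted p = 0.252). In each of the 3 genes both knockout arrays were above both control arrays, as they were for 23.1% of all genes. Psmb11, the thymus subunit, read 4.23 and 3.66 in knockout cells and 3.63 and 3.60 in control cells, all within the background.

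The 8 alpha subunits, which form the gate of the core, had a median difference of 0.03 and no call in limma, with 2 at an unadjusted p under 0.05. Psma8, the testis form of an alpha subunit, was the lowest: it read 7.59 and 7.97 in knockout cells and 8.33 and 8.74 in control cells. The groups did not overlap, and the difference of -0.75 ± 0.19 (SE, limma, adjusted p = 0.0692) missed the threshold. Psma4 lay at the other end and read 12.42 and 12.78 in knockout cells and 11.86 and 12.07 in control cells, a difference of 0.64 ± 0.17 (SE, limma, adjusted p = 0.0729). Psma2 differed least, at 12.83 and 13.05 in knockout cells and 12.89 and 12.96 in control cells, with a 95% interval of -0.32 to 0.35 around 0.02. The other 5 ring members differed by 0.26 (Psma1), 0.18 (Psma7), 0.04 (Psma3), -0.06 (Psma5) and -0.21 (Psma6).

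The 6 ATPases of the base had a median difference of -0.17 and no call in limma, with 1 at an unadjusted p under 0.05. Psmc2 had the largest difference and read 12.16 and 12.10 in knockout cells and 12.53 and 12.49 in control cells. Both knockout arrays were lower, by 0.38 ± 0.13, which missed the threshold (SE, limma, adjusted p = 0.133). By the brightest probe set Psmc4 differed least, at 12.48 and 12.50 in knockout cells and 12.42 and 12.41 in control cells. The 95% interval of its difference was -0.23 to 0.38. The other ATPases differed by 0.09 (Psmc5), -0.15 (Psmc6), -0.18 (Psmc3) and -0.25 (Psmc1). Other probe sets at a mean level of at least 6 differed by 0.43 for Psmc4, -0.16 for Psmc2, and -0.34 and -0.62 for Psmc6. The 3 other base subunits were not called either, with 1 at an unadjusted p under 0.05. Psmd1, a scaffold of the base, read 11.42 and 11.30 in knockout cells and 11.02 and 10.66 in control cells, a difference of 0.53 ± 0.16 (SE, limma, adjusted p = 0.103). Its scaffold partner Psmd2 differed by -0.20, and the groups overlapped. Psmd4, a receptor for ubiquitin chains, read 11.70 and 11.85 in knockout cells and 11.50 and 11.90 in control cells, a difference of 0.08 ± 0.17. The median of the 3 was 0.08, and 0.43 with the probe sets of a gene averaged.

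Of the 8 lid subunits 2 were called higher, and their median was 0.06. At an unadjusted p under 0.05 in limma there were 4, the called Psmd8 and Psmd7 and, on the lower side, Psmd12 and Psmd13, whose adjusted p-values were 0.188 and 0.197. Psmd8 read 10.91 and 10.90 in knockout cells and 10.08 and 10.22 in control cells. The knockout arrays were nearly equal and both above the control arrays, by 0.75 ± 0.13 (SE, limma, adjusted p = 0.0401), or 1.68-fold. Psmd7 read 10.76 and 10.64 in knockout cells and 10.10 and 10.001 in control cells, a difference of 0.65 ± 0.14 (SE, limma, adjusted p = 0.0482), or 1.57-fold. Psmd7 pairs with Psmd14, the metalloprotease that cuts ubiquitin off the substrate. Psmd14 lay the other way, at 12.47 and 12.57 in knockout cells and 12.80 and 12.85 in control cells, a difference of -0.31 ± 0.13 (SE, limma, adjusted p = 0.215). Psmd6 differed least, at 12.14 and 12.22 in knockout cells and 12.25 and 12.41 in control cells. The other lid subunits differed by 0.36 (Psmd3), 0.27 (Psmd11), -0.35 (Psmd12) and -0.36 (Psmd13). The calls of Psmd8 and Psmd7 passed in 0 of the 4 fits that left out 1 array, and the median of the lid was -0.059 without control replicate 2.

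The 7 assembly factors had a median difference of 0.30 and no call in limma, with 1 at an unadjusted p under 0.05. Psmg4, one of the chaperones of the alpha ring, read 9.57 and 9.86 in knockout cells and 9.12 and 9.14 in control cells, a difference of 0.58 ± 0.15 (SE, limma, adjusted p = 0.0698). Its fellow chaperone Psmg3 differed least, at 9.40 and 9.79 in knockout cells and 9.47 and 9.70 in control cells. Psmg1 and Psmg2, which act as a pair on the same ring, differed by 0.30 and 0.17. The chaperones of the base were Psmd10 at 0.41, Psmd9 at 0.32 and Psmd5 at -0.35. In these 3 genes the arrays of the groups did not overlap, with adjusted p-values of 0.2345, 0.311 and 0.2504 in limma. Over all genes, both knockout arrays lay above both control arrays in 23.1% and below both in 29.2%.

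Of the 4 activators and inhibitors tested, Psmf1 was called, and 3 had an unadjusted p under 0.05 in limma. It read 8.49 and 8.49 in knockout cells and 7.86 and 7.89 in control cells. Both pairs were tight, and the difference was 0.62 ± 0.13 (SE, limma, adjusted p = 0.0487), or 1.53-fold. The median of the 4 was 0.11, and -0.048 with the trend on gene span and mean level removed. The call of Psmf1 passed in 0 of the 4 fits that left out 1 array, and the mean of all probe sets of Psmf1 differed by 0.06. Psme4, a large activator of the core, lay the other way, at 11.76 and 11.42 in knockout cells and 12.23 and 11.96 in control cells, a difference of -0.50 ± 0.17 (SE, limma, adjusted p = 0.129). Psme1, part of an interferon-induced activator, differed by 0.38 ± 0.14 (SE, limma, adjusted p = 0.15). A probe set listed under both Psme2, the partner of Psme1, and Psme2b read 10.36 and 10.91 in knockout cells and 9.54 and 9.76 in control cells. Its difference of 0.98 ± 0.21 missed the threshold in the fit of all probe sets (SE, limma, adjusted p = 0.0779), and the signal cannot be assigned to either gene. Psme3, the nuclear activator, had the smallest difference and read 8.998 and 9.02 in knockout cells and 9.14 and 9.21 in control cells. The pattern-only genes were not called: Psmc3ip read 9.08 and 9.26 in knockout cells and 9.42 and 9.46 in control cells, a difference of -0.27, and Psme3ip1 read 10.13 and 9.87 in knockout cells and 9.74 and 9.77 in control cells, a difference of 0.25.

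**Figure D2:**
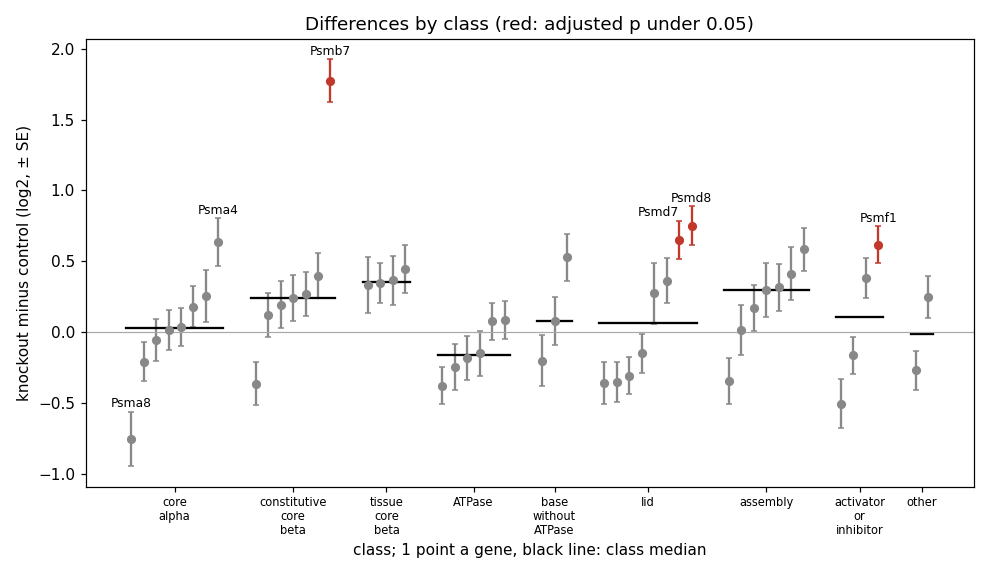
Log2 difference, knockout minus control, of each gene with its SE, by class, with a line at each class median and the 4 called genes in red. Psmb7 sits at 1.78, apart from the other constitutive beta subunits, and every class holds genes on both sides of 0 except the inducible and tissue-restricted beta subunits, which span 0.33 to 0.45.

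Promoter sequence was read for 41 of the 49 genes from RefSeq (GRCm38.p6), as the 250 bases before and 50 bases after each annotated start. Of the called genes, Psmd8 and Psmf1 had an entry. They are shown because both hold CAGGTG, the E-box that Snail proteins bind. The motif is in capitals and reads CACCTG where it lies on the opposite strand. Each sequence runs in the direction of the gene, here the minus strand, and ends before the start. The Psmd8 stretch, chr7:29180712-29180906, holds 3 matches and lies from 233 to 39 bases upstream. The Psmf1 stretch, chr2:151741337-151741382, lies from 72 to 27 bases upstream, inside the annotated span of the gene, and a further match lies past the start.
Psmd8: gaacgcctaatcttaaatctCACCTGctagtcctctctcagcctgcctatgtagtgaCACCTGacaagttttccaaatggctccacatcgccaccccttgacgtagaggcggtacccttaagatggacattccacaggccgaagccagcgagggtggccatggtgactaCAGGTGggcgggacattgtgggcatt
Psmf1: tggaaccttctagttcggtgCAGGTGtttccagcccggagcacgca

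The same motif stood in promoters of genes that were not called, so 3 of these are set beside them. Psmd6 is the lid subunit that differed by -0.15 (chr14:14121024-14121069), Psmg3 the chaperone that differed by 0.01 (chr5:139827013-139827058), and Psmb9 the immunoproteasome subunit that differed by 0.35 (chr17:34187446-34187491), all on the minus strand.
Psmd6: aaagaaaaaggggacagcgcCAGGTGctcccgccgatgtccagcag
Psmg3: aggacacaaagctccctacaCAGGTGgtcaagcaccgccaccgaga
Psmb9: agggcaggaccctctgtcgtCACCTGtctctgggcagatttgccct

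CAGGTG or its reverse stood in a promoter of 10 of the 41 genes, or 24.4%, and of 22.6% of the 27025 genes with a promoter entry. The share in proteasome genes was thus near that of all genes. The letters TGACNNNGC, on either strand, are the core of the element through which Nfe2l1 and Nfe2l2 are known to drive proteasome genes. They stood in a promoter of 6 of the 41 genes, or 14.6%, of 14% of all genes with an entry, and of neither called gene with an entry. Examples are Psmb5, which differed by 0.12 (chr14:54618014-54618062, minus strand), and Psmd9, which differed by 0.32 (chr5:123228139-123228187, plus strand), with the motif in capitals.
Psmb5: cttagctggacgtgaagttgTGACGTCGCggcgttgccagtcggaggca
Psmd9: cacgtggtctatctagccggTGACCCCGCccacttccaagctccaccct

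The letters CCAAT, the box bound by the NF-Y factor, were read on either strand. They stood in a promoter of 16 of the 41 genes, or 39%, and of 41.1% of all genes with an entry. These matches describe letters only and no binding was measured.

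Of the 49 genes, 27 had at least 2 probe sets, and 27 of the other probe sets, of 19 genes, had a mean level of at least 6. In a fit of every probe set, 0.79% of all probe sets passed, and 0 of the 54 other member probe sets did, with 15 at an unadjusted p under 0.05, where 21.7% of all probe sets were, and a lowest adjusted p of 0.0516 in limma. Of the 27, 19 had the sign of the brightest probe set and 8 the opposite sign, and 12 lay within 0.2 of it. In 5 genes another probe set stood more than 0.6 from the brightest. For Psmg2 the brightest probe set differed by 0.17, while another read 10.41 and 10.85 in knockout cells and 9.46 and 9.51 in control cells, a difference of 1.15. For Psmd4 the brightest differed by 0.08, while another read 10.29 and 10.65 in knockout cells and 9.17 and 9.73 in control cells, a difference of 1.02.

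Psmb3 changed sign between its probe sets. The brightest differed by -0.36, and another read 12.03 and 12.36 in knockout cells and 11.44 and 11.53 in control cells, a difference of 0.71. Psmc3ip did so as well, at -0.27 and 0.41. With smaller gaps, the brightest and another probe set also had opposite signs in Psma6 (-0.21 and 0.17) and Psme3 (-0.16 and 0.27). The same held for Psmd11 (0.27 and -0.02) and Psma5 (-0.06 and 0.07). For the called gene Psmf1, other probe sets differed by -0.14 and -0.01, so its call rests on 1 of its probe sets. For the called gene Psmd7, another probe set, at a mean of 7.34, differed by 0.62, close to the 0.65 of the brightest. Psmd8 and Psmb7 had no other probe set to compare.

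**Figure D3:**
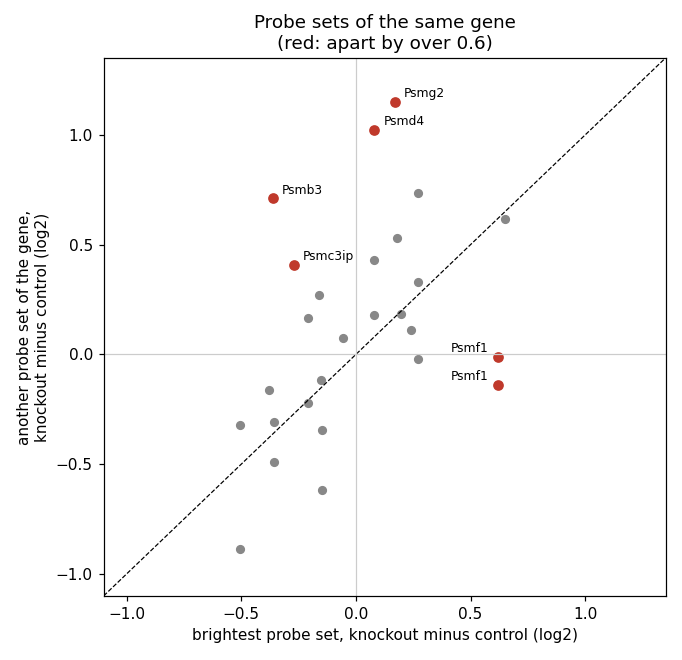
Log2 difference, knockout minus control, of the brightest probe set of a gene and of its other probe sets at a mean level of at least 6. Psmg2 and Psmd4 have another probe set above 1 beside a brightest one under 0.2. Psmb3, Psmc3ip and Psmf1 have probe sets on either side of 0, as do Psma6, Psme3, Psmd11 and Psma5 with smaller gaps.

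The second array of each group read most of these genes higher than the first. Replicate 2 was above replicate 1 for 38 of the 49 genes in knockout cells, by a median of 0.15, and for 39 in control cells, by a median of 0.17. It was above in both groups for 33 of the 49 genes, a larger share than the 30.9% of all genes. Over all genes replicate 2 was above replicate 1 for 48.4% in knockout cells and 57.9% in control cells. The fibroblast markers lay the other way, with 3 of 15 higher on replicate 2 in knockout cells (median -0.74) and 1 of 15 in control cells (median -0.59). The size of the difference between groups had a median of 0.30 over the 49 genes, against 0.18 over all genes, and it was larger than both gaps between replicates in 25 of them, where 40.4% of all genes met this. Whether feeder RNA or another property of the arrays moved these genes was not tested.

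**Figure D4:**
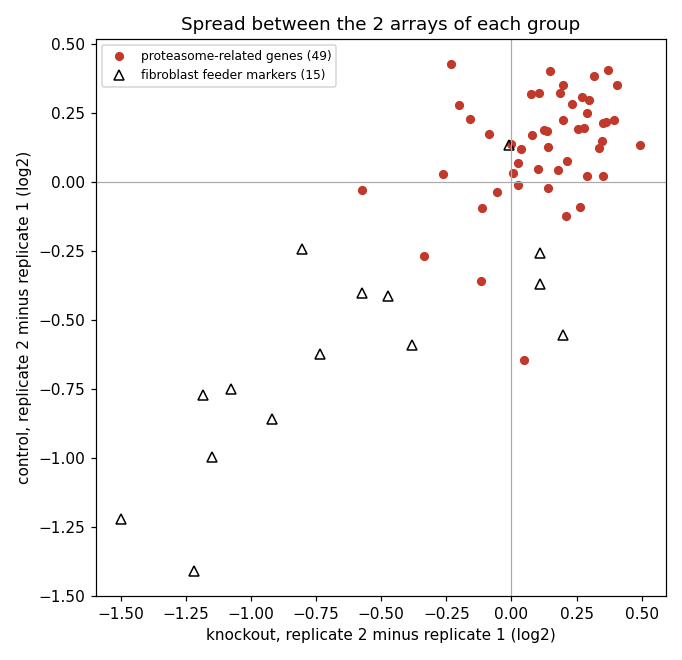
Difference between replicate 2 and replicate 1 in knockout cells and in control cells for each of the 49 genes (filled points) and the 15 fibroblast markers (triangles), on the log2 scale. Of the 49 genes 33 lie above 0 in both groups, while most fibroblast markers lie below 0 in both.

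The difference between groups also moved with gene length. Among genes with a mean level of at least 10, those with a genomic span under 10 kb had a median difference of 0.09 (n = 643), with 8.24% called higher and 0.467% lower. Those over 30 kb had a median of -0.27 (n = 593), with 0.675% called higher and 5.73% lower. The 13 members under 10 kb had a median of 0.18 and 2 calls, Psmd8 and Psmd7, so their calls came from the class in which higher calls were most common. The 15 members of 10 to 30 kb had a median of -0.06 and 0 calls. The 7 members over 30 kb had a median of 0.27, and Psmb7, with a span of 55.9 kb, was called higher. Spearman's rho of difference and span was -0.261 over 47 genes with a proteasome role, dim ones included. It was -0.389 over 1998 genes with a mean level of at least 10, so the sets differ in their level filter. Both are given as descriptions, since genes are not independent and share the arrays. With the trend on span and mean level removed, the difference was 1.99 for Psmb7 (limma, adjusted p = 0.00967), 0.63 for Psmd8 (limma, adjusted p = 0.0469) and 0.72 for Psmf1 (limma, adjusted p = 0.0374). In that fit Psmd1 was called as well, at 0.76 (limma, adjusted p = 0.0463), and Psmd7, at 0.57, was not (limma, adjusted p = 0.076).

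Lists of other genes that work with the proteasome held 0 or 1 call each, where 4.14% of all genes were called, and the lists are too short to read a share from. Of 10 further parts and partners of the particle, 8 were measured, with 0 called higher, 1 lower, 2 at an unadjusted p under 0.05 in limma and a median difference of -0.14. Usp14, a deubiquitinase bound to the base, fell: it read 10.25 and 10.15 in knockout cells and 10.80 and 11.02 in control cells, a difference of -0.71 ± 0.14 (SE, limma, adjusted p = 0.0461). Its other probe sets differed by -0.46, -0.19 and 0.05. Pomp, the chaperone that matures the core, read 11.82 and 12.29 in knockout cells and 11.48 and 11.76 in control cells, a difference of 0.43 ± 0.19 (SE, limma, adjusted p = 0.226). Sem1, a small lid subunit, read 11.86 and 12.12 in knockout cells and 11.64 and 11.66 in control cells, a difference of 0.34 ± 0.15 (SE, limma, adjusted p = 0.215). Adrm1, a ubiquitin receptor, and Paaf1 had no probe set of their own in the fit.

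Of 20 genes of ubiquitin supply and delivery, 13 were measured, with 0 called higher, 1 lower, 5 at an unadjusted p under 0.05 in limma and a median of 0.07. Ube3c, a ubiquitin ligase found on the proteasome, fell, at 9.13 and 8.86 in knockout cells and 9.72 and 9.88 in control cells, a difference of -0.81 ± 0.15 (SE, limma, adjusted p = 0.0426). Its other probe set differed by -0.34. For Ube2d3 the brightest probe set differed by 0.20, while another passed in the fit of every probe set, at 1.41 (limma, adjusted p = 0.0439). The remaining Ube2d3 probe sets at a mean level of at least 6 differed by -0.80 to -0.09. Of 12 genes of transcription control, 1 was called higher and 0 lower, 5 had an unadjusted p under 0.05 in limma, and the median was 0.08. Mafg, a small Maf protein that pairs with Nfe2l1 on DNA, rose, at 9.16 and 8.89 in knockout cells and 8.08 and 7.59 in control cells, a difference of 1.18 ± 0.20 (SE, limma, adjusted p = 0.0352). Another Mafg probe set differed by 0.15. For Stat3 the brightest probe set differed by 0.50, while another passed in the fit of every probe set, at 1.49 (limma, adjusted p = 0.0439). A further Stat3 probe set differed by 0.08. Nfe2l1, the factor that restores proteasome genes when the proteasome is blocked, read 9.53 and 9.31 in knockout cells and 9.28 and 9.29 in control cells, a difference of 0.14 ± 0.14 (SE, limma, adjusted p = 0.641).

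Interferon induces the immunoproteasome together with the genes of antigen presentation, of which 10 of 12 were measured. None was called in limma, 3 had an unadjusted p under 0.05, and their median difference was 0.17. B2m, the light chain of class I molecules, had the largest difference, at 9.54 and 9.51 in knockout cells and 9.06 and 8.80 in control cells, or 0.60 ± 0.15 (SE, limma, adjusted p = 0.0618), and another B2m probe set differed by 1.26. Tap1 and Tap2, the peptide transporter, differed by 0.25 and 0.30, and Tapbp, which tethers it, by 0.43. Irf1, a transcription factor that interferon induces, differed by 0.27, and its groups overlapped. Erap1 lay the other way, at -0.44, and was among the 3 with an unadjusted p under 0.05 in limma. Gbp2 differed by 0.10, Irf9 by -0.03 and Ifit1, within the background, by -0.22. Nlrc5, an activator of class I genes, read within the background on all 4 arrays.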

How the data were processed

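RNA of 4 ES cell samples, 2 per group, was hybridised to single-colour Affymetrix arrays after amplification from the 3′ end, per the labels' protocols. The authors deposited log2 values for 45101 probe sets. Their processing notes name RMA and limma, and give no settings; no genome build is given in the sources used here. RMA sets the distributions of arrays equal, so a shift shared by most genes can be lost; array medians were 4.91 to 4.95. The number of arrays limits precision.

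Gene symbols came from GEO's annotation of the platform, which can be old. Of them, 34958 had 1 symbol, 932 several and 9211 none. Symbols of 34754 matched a RefSeq table (GRCm38.p6), used for names and spans. After 64 control probe sets were left out, the brightest probe set stood for each of 18193 genes. Knockout was compared with control by limma 3.58.1 (lmFit, eBayes) in R 4.3.3, two-sided, without covariates, with Benjamini-Hochberg adjustment over all genes and a threshold of 0.05. Differences are knockout minus control, and ± is limma's moderated standard error. Scripts were tested on simulated data. Classes follow subunit position. Members and lists were chosen with earlier results of these data known. Per-array values are given for called genes, for the largest and smallest difference in each class, and for Psmb5, Psmb8, Psmb9, Psmb10, Psmd14, Psmc3ip and Snai1, and for the genes of the other lists that were called, the largest where none was, with Nfe2l1, Pomp and Sem1 (Adrm1, in the same rule, was not measured); Psma4, Psme3ip1, the interferon genes beside B2m, the probe set of Psme2 and Psme2b and the probe sets set apart were added after their values were seen. Alternatives covered variance moderation, scaling, dim genes, probe set choice, gene span with mean level, a fold minimum, a replicate block and leaving out arrays.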

Additional observations from a re-analysis of the deposited data

How the results depend on the processing

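Of the 49 genes, 4 passed the threshold in the fit reported. The count was 2 with an intensity trend in the variance, 7 among genes with a mean of at least 8 (6 higher, 1 lower), 2 with a gene's probe sets averaged, 1 with every probe set tested singly, 10 with the replicate number as a block (8 higher, 2 lower) and 0 to 1 when an array was left out. Over all genes 754 passed, and 481 with the trend, 1224 among genes with a mean of at least 6, 321 with probe sets averaged, 118 with probe sets tested singly, 3092 with the replicate block and 4 to 50 when an array was left out. So the members' share of 20.4% with the block stood beside 17% of all genes, and their 15.2% among genes with a mean of at least 8 beside 18.7%. The numbers are shared by 2 groups of 2 only: deviations of same-numbered arrays correlated at 0.294 over all genes and 0.334 over the members, which does not establish pairs.

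Psmb7 passed in 14 of 16 alternatives, with a difference of 1.66 to 1.99, Psmd8 in 11, and Psmd7 and Psmf1 in 8 each. The median of the constitutive beta subunits was 0.068 with the trend on span and mean level removed and 0.10 to 0.36 when an array was left out. That of the base subunits without ATPase activity was 0.43 with probe sets averaged. That of the lid was 0.15 with the trend on span and mean level removed, and -0.059 (without control replicate 2) to 0.075 when an array was left out. The lid median was -0.087 without probe sets whose ID ends in _x_at or _s_at, an alternative chosen after seeing the data. That of the activators and inhibitors was -0.048 with the trend on span and mean level removed. Psma4, Psma8, Psmb8, Psmd1, Psme4 and Psmg4 passed under at least 1 alternative. The cause was not tested. With 2 arrays per group, a gene that missed the threshold is not shown to be unchanged.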
